A study of Homo sapiens with 6 samples.

Results

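Mitochondrial ribosomal proteins build the ribosome that works inside mitochondria. It reads the few mRNAs of the mitochondrial genome, which encode core subunits of the respiratory chain and of ATP synthase. Its RNA comes from the mitochondrial genome, whereas all of its proteins are encoded in the nucleus, made in the cytosol and imported. Genes were taken by symbol: MRPL and a number for the large subunit, MRPS and a number for the small subunit, with a letter A to C allowed at the end, and DAP3, the small subunit protein known under another name. This gave 79 of the 63643 rows of the count table, 49 for the large and 30 for the small subunit, on 21 chromosomes, all protein-coding in GENCODE release 29. Of these, 75 passed the filter on low counts (47 large, 28 small).

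The libraries came from HEK293T cells, a human embryonic kidney line, with GLO1 deleted in both groups per the labels. GLO1 encodes glyoxalase, the first enzyme by which cells detoxify methylglyoxal (MGO). Cells of the MGO group received 60 µM MGO for 4 h, and cells of the Control group were untreated, with 3 libraries in each. The study asked if MGO, a reactive aldehyde that arises beside glycolysis, alters the transcriptome in the manner of the integrated stress response. Neither a clone nor separate cultures are named in the labels. The p-values therefore reflect only how much these libraries vary, which may be technical.

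The depth per library ranged over 128270160 to 138680220 counts for MGO and 117427883 to 157639431 counts for Control. Levels are given as CPM, the counts of a gene relative to library depth after scaling by edgeR's TMM method, and changes as the log2 fold change of MGO over Control with its standard error (SE). A change was called at an edgeR adjusted p under 0.05 over all 23109 genes tested, and 79.3% of them were called. GLO1 had 97.32 to 106.4 CPM in MGO and 36.27 to 37.95 CPM in Control libraries. The labels do not say which part of it is missing, so this checks neither the deletion nor the group labels. The HEK293T markers KRT8, KRT18, VIM, NEFL and LIN28B had at least 33.9 CPM in every library, and the sixth, NEFM, had 0.445 to 1.54 CPM. Markers of blood cells summed to 0.445 to 0.809 CPM in MGO and 0.175 to 0.301 CPM in Control libraries. Those of fibroblasts summed to 5.21 to 5.78 CPM in MGO and 14.2 to 15.4 CPM in Control libraries, mostly from COL1A1 in both groups, while COL1A2, DCN and THY1 were near 0.

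DNA of 3 genes is shown first: MRPS18A, the third largest rise, MRPL58, between the median and the upper quartile, and MRPS25, the largest fall. These 3 genes do not stand for all members, whose promoters are described below. The stretches lie before the first transcribed base in RefSeq (GRCh38.p14), cut back to bases outside the exons of GENCODE's basic transcripts, and are written 5′ to 3′ on the strand of the gene. Capitals mark the core of the ETS family's site, CCGGAAG on either strand.
MRPS18A, chr6:43687792-43688041, minus strand: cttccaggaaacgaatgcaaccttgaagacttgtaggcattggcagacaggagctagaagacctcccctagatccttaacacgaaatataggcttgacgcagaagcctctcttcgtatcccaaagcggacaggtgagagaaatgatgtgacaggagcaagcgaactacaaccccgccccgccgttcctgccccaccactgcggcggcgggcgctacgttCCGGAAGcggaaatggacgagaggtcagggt
MRPL58, chr17:75012420-75012669, plus strand: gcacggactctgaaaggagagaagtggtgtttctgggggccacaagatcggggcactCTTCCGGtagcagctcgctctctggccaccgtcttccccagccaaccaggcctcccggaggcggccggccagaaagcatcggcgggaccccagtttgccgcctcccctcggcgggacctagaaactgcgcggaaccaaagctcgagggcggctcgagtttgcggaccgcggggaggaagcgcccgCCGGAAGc
MRPS25, chr3:15065336-15065565, minus strand: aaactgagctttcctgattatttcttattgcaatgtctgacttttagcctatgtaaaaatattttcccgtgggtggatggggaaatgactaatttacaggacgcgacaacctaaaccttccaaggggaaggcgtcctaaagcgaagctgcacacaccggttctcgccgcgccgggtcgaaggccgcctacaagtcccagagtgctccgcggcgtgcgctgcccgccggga

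Transcripts of both subunits were higher after MGO in nearly every member tested. Of 75 members, 70 rose and 3 fell, with 2 short of the threshold, where 38.8% of all genes tested rose and 40.5% fell. The median log2 fold change was 1.29, which is 2.45-fold, against −0.02 over all genes tested. A rise of at least 2-fold was called for 53 members and for 20.9% of all genes tested. The 3 MGO libraries lay above the 3 Control libraries for 71 members (39.7% of all genes tested), below them for 3 (41.8%), and overlapped for MRPL19, where 81.5% of all genes tested did not overlap in either direction. The members together took 0.703 ± 0.0197% of all counts in MGO and 0.4411 ± 0.0168% in Control libraries (SD, n = 3 each), a share that does not depend on the scaling. In bulk RNA, the number of cells and the RNA per cell cannot be told apart. The scaling matters for the size of these changes: under library size alone the median of all genes moved to −0.55 and that of the members to 0.77, with 64 raised and 7 lowered.

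**Figure D1:**
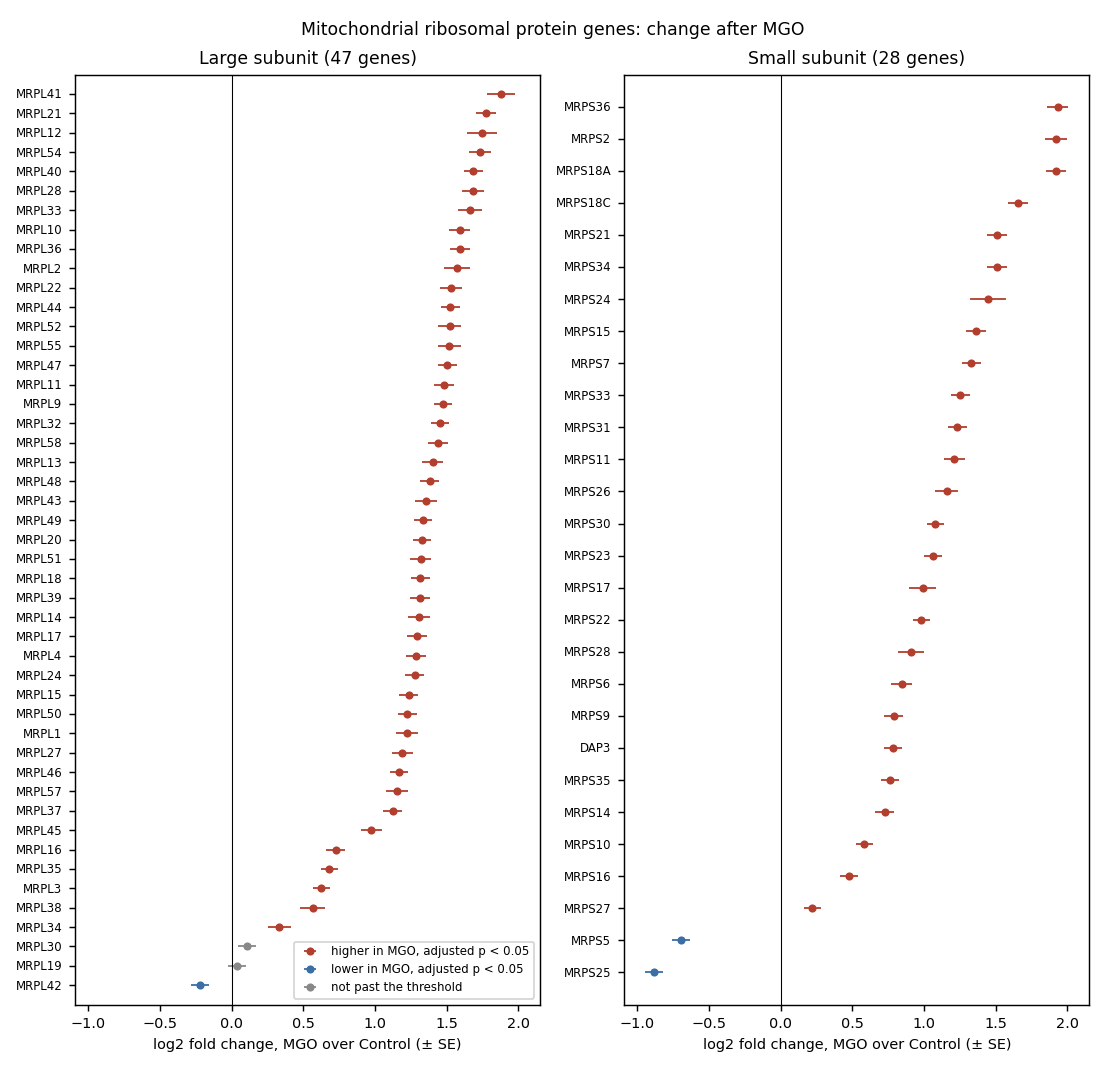
Log2 fold change of MGO over Control for the 75 members tested (points, with SE as bars), ranked within the large subunit (left panel, 47 genes) and the small subunit (right panel, 28 genes). In the large subunit 44 genes rose and MRPL42 fell; in the small subunit 26 rose and MRPS5 and MRPS25 fell.

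Both subunits rose, the large one by more at the median. Of 47 large subunit genes tested, 44 rose and 1 fell, with a median of 1.33 and a range of −0.22 to 1.88. Of 28 small subunit genes, 26 rose and 2 fell, with a median of 1.07 and a wider range, −0.89 to 1.93. Rises of under 2-fold were more frequent in the small subunit, with 11 genes against 6 in the large one. The summed level of large subunit genes was 5238, 5822 and 5578 CPM in MGO replicates 1 to 3, against 2402, 2233 and 2322 CPM in Control replicates 1 to 3. That of small subunit genes was 2739, 3058 and 2899 CPM in MGO, against 1384, 1321 and 1366 CPM in Control libraries. The ratio of summed counts, large over small, was 1.912, 1.904 and 1.924 in MGO libraries and 1.735, 1.69 and 1.70 in Control libraries, so the groups did not overlap. The difference between the subunits' medians was 0.26, and between 0.26 and 0.29 with each MGO library set alone against the Control mean. It is a description, since members are not replicates. Median transcript length also differed, at 1076 nt in the large and 1415.5 nt in the small subunit. With the length and GC trend described below removed, the medians were 1.23 and 0.97, and their difference was 0.27. The part of length in the difference was not tested further. Structures of the human mitochondrial ribosome place the products of MRPS18A and MRPS30 in the large subunit, and MRPS36 is now assigned to the oxoglutarate dehydrogenase complex. With the genes sorted this way, the medians were 1.33 for 49 large and 0.99 for 25 small subunit genes.

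**Figure D2:**
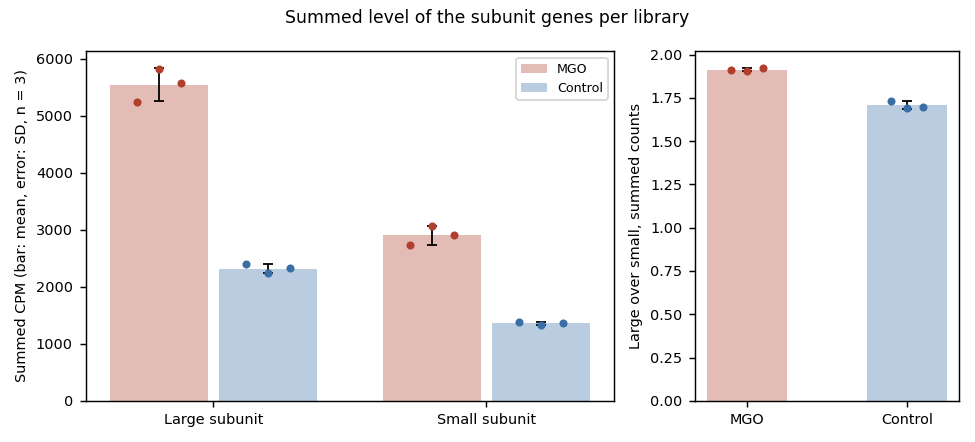
Left panel, summed CPM of the large and small subunit genes; right panel, ratio of summed counts, large over small. Bars are means with SD (n = 3), points are libraries, MGO left of Control; the ratio was 1.913 ± 0.0101 in MGO and 1.708 ± 0.0236 in Control libraries.

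The largest rises of the large subunit were those of MRPL41, MRPL21 and MRPL12. MRPL41 (chromosome 9, 137551199 to 137552555), a protein without a bacterial counterpart, had 157.7, 208.5 and 200.9 CPM in MGO, against 48.81, 51.58 and 53.81 CPM in Control libraries. MGO replicate 1 was the lowest of its group and still far above every Control library (log2 fold change 1.88, SE 0.10, adjusted p = 2.58e-09). MRPL21 (chromosome 11, 68891276 to 68903835), the counterpart of bacterial L21, had 99.31, 106.6 and 100.4 CPM in MGO, against 32.16, 27.61 and 29.72 CPM in Control libraries (1.78, SE 0.07, adjusted p = 3.57e-10). MRPL12 belongs to the stalk, the flexible arm that recruits translation factors to the ribosome, and is also known to bind the mitochondrial RNA polymerase. It (chromosome 17, 81703357 to 81707526) had 87.24, 118.1 and 115.3 CPM in MGO, against 31.21, 32.08 and 32.19 CPM in Control libraries (1.75, SE 0.10). MGO replicate 1 was again the lowest of its group. In GENCODE, 68.2% of the exon bases of MRPL12 lie under exons of AC139530.2 on the same strand, so its counts are uncertain.

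All 3 stalk genes rose. MRPL10, which anchors the stalk, rose by 1.59 (SE 0.07), with 151.2, 174.0 and 173.5 CPM in MGO against 54.56, 53.16 and 57.61 CPM in Control libraries. MRPL11, at the base of the stalk, rose by 1.48 (SE 0.07). Around the peptidyl transferase centre, where the peptide bond is made, 4 of 4 genes rose over a wide range: MRPL2 had the largest change there at 1.57 (SE 0.09), MRPL27 stood at 1.19, MRPL16 at 0.73 and MRPL3 at 0.63 (SE 0.06). Under library size alone the call of MRPL3 ended (0.10, adjusted p = 0.165). Along the exit tunnel and at its mouth, all 5 genes tested of 6 rose. MRPL22 led them at 1.53 (SE 0.08), followed closely by MRPL47, with MRPL4 at 1.29 and MRPL24 at 1.28. MRPL45, which holds the ribosome to the inner membrane, had the smallest of these rises (0.98, SE 0.07), with 27.78, 29.69 and 26 CPM in MGO against 14.51, 14.09 and 13.84 CPM in Control libraries. In the small subunit, 4 genes were listed for the mRNA channel and the decoding centre. MRPS2 and MRPS24 rose, by 1.92 and 1.45, MRPS5 fell and MRPS12 was not tested. Exons of URGCP-MRPS24 on the same strand cover 77% of those of MRPS24, so its counts are uncertain. These groups of genes were formed with the values known.

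MRPL58, a peptidyl-tRNA hydrolase derived from a release factor and built into the large subunit, rose by 1.44 (SE 0.07, adjusted p = 1.76e-09). It had 85.20, 94.13 and 90.36 CPM in MGO, against 35.68, 31.00 and 32.64 CPM in Control libraries. MRPL44, an RNase III-like protein, rose by 1.53 (SE 0.06). Per length of transcript, the most abundant large subunit genes were MRPL51 and MRPL28. MRPL51 stood at 492.9 CPM per kb in MGO and 197.3 in Control, and MRPL28, the counterpart of bacterial L28, at 394.6 in MGO and 122.9 in Control (fold changes 2.50 and 3.21). This ranking rests on median transcripts of 551 and 981.5 nt, while all their annotated exons sum to 1551 and 1960 bp. Exons of NCAPD2 on the other strand cover 29.9% of those of MRPL51. Exons of TMEM8A on the same strand cover 11.4% of those of MRPL28.

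In the small subunit, MRPS36, MRPS2 and MRPS18A had the largest rises, close to each other in size. MRPS36 (chromosome 5, 69217760 to 69230129) had 36.07, 39.03 and 34.93 CPM in MGO, against 9.977, 9.019 and 9.858 CPM in Control libraries (1.93, SE 0.07, adjusted p = 2.57e-10). MRPS36, which had the highest estimate, encodes a protein that is no longer counted as part of the ribosome. MRPS2 (chromosome 9, 135499984 to 135504673), counterpart of bacterial S2, had 220.1, 265.9 and 261.4 CPM in MGO, against 64.53, 66.80 and 66.11 CPM in Control libraries (1.92, SE 0.08). MRPS18A (chromosome 6, 43671303 to 43687791) had 68.56, 79.52 and 77.86 CPM in MGO, against 20.21, 19.46 and 20.07 CPM in Control libraries (1.92, SE 0.07, adjusted p = 2.18e-10). The SE of these 3 changes overlap, so their order is not resolved.

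Humans carry 3 relatives of bacterial S18. MRPS18C rose by 1.65 (SE 0.07), with 37.32, 41.12 and 38.20 CPM in MGO against 12.76, 12.05 and 12.24 CPM in Control libraries, and MRPS18A as above. Exons of neighbours on the other strand cover 78.9% of the exon bases of MRPS18C and 56.9% of those of MRPS18A. The strand setting of the counting is not given in the sources available here. MRPS18B was listed at 0 in 5 libraries and at 1 count in MGO replicate 2. MRPS30, a large subunit protein by position, rose by 1.08 (SE 0.06), with 101.0, 104.7 and 98.39 CPM in MGO against 46.68, 49.03 and 48.40 CPM in Control libraries. DAP3, a GTP-binding protein first described as a mediator of cell death, rose by 0.78 (SE 0.06, adjusted p = 1.46e-07). It had 134.8, 143.5 and 133.7 CPM in MGO, against 82.66, 75.99 and 80.61 CPM in Control libraries. Per length of transcript, MRPS34 and MRPS15 were the most abundant small subunit genes, at 321.0 and 193.3 CPM per kb in MGO and 112.9 and 75.29 in Control.

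MRPS25, MRPS5 and MRPL42 fell. MRPS25 (chromosome 3, 15042460 to 15065335), a small subunit protein without a bacterial counterpart, had 26.41, 26.67 and 25.63 CPM in MGO, against 49.41, 47.36 and 48.65 CPM in Control libraries (−0.89, SE 0.06, adjusted p = 3.01e-08). MRPS5 (chromosome 2, 95087207 to 95149434), counterpart of bacterial S5 near the entry of the mRNA, had 10.36, 10.66 and 10.47 CPM in MGO, against 17.02, 17.10 and 16.87 CPM in Control libraries (−0.70, SE 0.07, adjusted p = 6.57e-07). The groups lay far apart with little spread inside each, at 0.541-fold of the Control level for MRPS25 and 0.618-fold for MRPS5. MRPL42 (chromosome 12, 93467488 to 93516213) fell by less, with 95.41, 92.79 and 86.50 CPM in MGO, against 109.6, 103.5 and 106.9 CPM in Control libraries (−0.22, SE 0.06, adjusted p = 0.00613). Its call ended with upper quartile scaling (−0.05, adjusted p = 0.498) and in a test against a 1.2-fold change (adjusted p = 0.544).

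Changes of MRPL30, MRPL19, MRPS27 and MRPL34 were small. MRPL30 had 58.09, 58.08 and 53.38 CPM in MGO, against 52.85, 51.22 and 53.22 CPM in Control libraries, and did not pass the threshold (0.11, SE 0.06, adjusted p = 0.126). MRPL19, whose bacterial counterpart lies at the contact of the subunits, had 93.86, 91.70 and 87.98 CPM in MGO, against 82.78, 92.19 and 91.51 CPM in Control libraries (0.04, SE 0.06, adjusted p = 0.604). It was the sole tested member whose groups overlapped. MRPS27, an RNA-binding protein with pentatricopeptide repeats, rose by 0.22 (SE 0.06, adjusted p = 0.00503), with 94.30, 102.0 and 100.3 CPM in MGO against 84.59, 82.78 and 87.14 CPM in Control libraries. MRPL34, counterpart of bacterial L34, rose by 0.33 (SE 0.08, adjusted p = 0.00218). Under library size alone MRPS27 turned to −0.31 and MRPL34 to −0.20, and removal of the length trend described below ended both calls (adjusted p = 0.194 and 0.332).

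**Figure D3:**
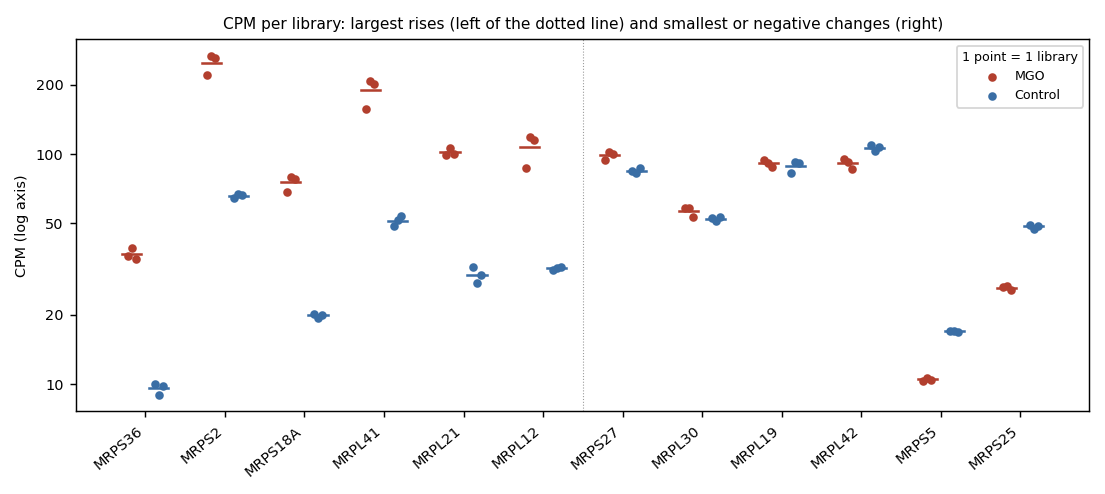
CPM per library (log axis) of the 3 largest rises of each subunit, left of the dotted line, and of the 3 smallest or negative changes of each, right of it. Points are libraries, lines are means, MGO left of Control. The groups stand far apart on the left, with MRPS2 at 249.1 CPM in MGO and 65.81 CPM in Control on average, and close together for MRPS27, MRPL30 and MRPL19.

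MRPL23, MRPL53, MRPS12 and MRPS18B did not pass the filter, with 0 to 4 counts in any library, whereas the other 75 members had between 344 and 46786. A library's floor of 3 counts equals 0.019 to 0.0255 CPM of its unscaled total. MRPS12 is the counterpart of S12 at the decoding centre and MRPL23 that of L23 at the tunnel mouth, both parts of every such ribosome, so these values are not read as absent expression. In GENCODE no exon of MRPL53 or MRPS18B overlaps one of another gene, and 5.1% of the exon bases of MRPL23 and 21.5% of those of MRPS12 do so, on the other strand. Why the counts are this low was not tested. Pseudogenes of members held 2871 counts over all libraries against 4704926 on the members, or 0.061 per 100, with MRPS31P5 and MRPS31P4 the highest at 1313 and 583. Of the 42 tested members with no exon overlap in GENCODE, 41 rose and 1 fell, with a median of 1.30. Among tested members that did not rise, neighbours on the same strand covered 20.2% of the exon bases of MRPL30 and 1.8% of those of MRPL42. Neighbours on the other strand covered 16.5% of those of MRPS25 and 2.1% of those of MRPL19, and MRPS5 had no overlap.

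Members with and without a counterpart in bacteria had similar counts, and the difference was not tested. Of 45 tested members with a bacterial counterpart, 42 rose and 1 fell (median 1.32), and of 30 without one, 28 rose and 2 fell (median 1.23). Members of both kinds reached a log2 fold change of 1.92 or 1.93 at the top, and −0.70 or −0.89 at the bottom.

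Across coding genes, the log2 fold change was lower for longer transcripts, and members have short transcripts. The median transcript of the tested members had 1147 nt, against 1995.75 nt over all genes tested. Over the 75 members, Pearson's r of log2 fold change and log2 transcript length was −0.237 (Spearman's rho −0.348), and over 14629 coding genes tested it was −0.53 (rho −0.558), with all points from the same 6 libraries. Under 1000 nt, 25 of 26 members rose with a median of 1.35, and 75.9% of coding genes rose with a median of 1.18. From 1000 to under 1500 nt the median was 1.31 over 25 members and 0.83 over coding genes. From 1500 to under 2000 nt it was 0.98 over 17 members and 0.48 over coding genes. The members stood highest above their class at 3000 nt and over. The 3 members of that length, MRPL22 (3098.5 nt), MRPS23 (3100.5 nt) and MRPL50 (3332 nt), rose by 1.53, 1.06 and 1.23. Coding genes of that length had a median of −0.82, and 16% of them rose. After removing from each library its trend with length and GC content, 68 members rose and 3 fell, where 47.9% of all genes tested rose and 31.7% fell. The members' median was then 1.17, and that of all genes 0.24.

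**Figure D4:**
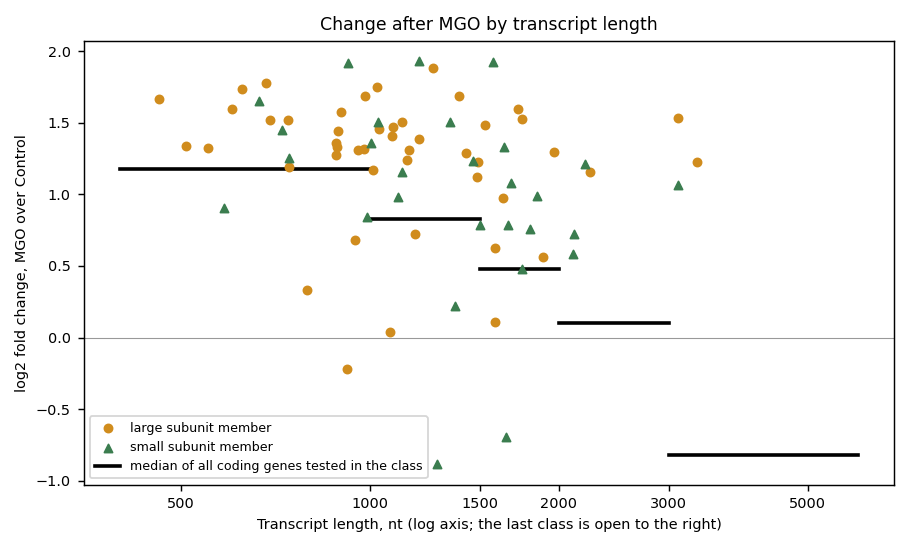
Log2 fold change of MGO over Control against transcript length (log axis) for the 75 members (circles, large subunit; triangles, small subunit). The members' median was 1.35 under 1000 nt and 1.23 at 3000 nt and over; black lines are medians of all coding genes tested in each of 5 length classes, 1.18 and −0.82 in those 2.

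The members that did not rise lay on both sides of the members' median transcript length. MRPL42 has 920 nt, MRPL19 1076 nt, MRPS25 1281 nt, MRPL30 1583.5 nt and MRPS5 1652 nt. The summed length of all their annotated exons was 16006 bp for MRPL42, 4586 bp for MRPS25, 3858 bp for MRPL19, 2797 bp for MRPL30 and 1652 bp for MRPS5. The median of this length was 3858 bp over these 5 genes and 1616.5 bp over the 70 that rose. Of the 11 tested members with more than 3000 bp, 8 rose, among them MRPS23 (5747 bp) and MRPS33 (4582 bp). Over the 75 members, Pearson's r of log2 fold change and log2 summed exon length was −0.493 (rho −0.44), as a description. Which isoforms were expressed was not tested.

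Promoters were searched for 5 short motifs, which the choice by symbol did not use. RefSeq gave a window from 250 bases before to 50 after the first transcribed base for 70 members. The ETS core CCGGAAG, on either strand, was in 29 of these windows (41.4%), against 10.7% of all 27305 promoters and 16.5% of those of tested genes. The site of YY1, searched as a fixed string of 10 bases, was in 13 (18.6%), against 1.28% of all promoters and 2.31% of those of tested genes. The NRF1 core, also 10 bases with 1 of them free, was in 8 (11.4%), against 6.28% and 10.2%. ETS and YY1 matches overlapped in 0 member windows. CCAAT was in 20 (28.6%), against 35.7% of all promoters, and TGACGTCA, the cyclic AMP response element, in 0, against 1.98%. The windows printed above hold 1 ETS core in MRPS18A, at 31 bases before the start, 2 in MRPL58, and none in MRPS25. They are not typical of raised members: 26 of 62 raised members with a window held an ETS core, and MRPS2, the second largest rise, held none. Of the 5 tested members with a window that did not rise, 1 held an ETS core. Of the 62 raised members with a window, 61.3% held an ETS, NRF1 or YY1 match, against 26.1% of promoters of tested genes and 16.5% of all promoters. Such a match was also in 2 of the 5 tested members that did not rise and in all 3 untested members with a window. A match describes the letters in the window and not binding.

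Some members start back to back with another coding gene. A coding gene on the other strand began between 1000 bp before and 100 bp after the start of 18 members (22.8%), against 8.18% of all coding genes in GENCODE by the same limits. In the pairs of MRPL32 with PSMA2 and MRPL13 with MTBP the partner began inside the member. MRPL46 and MRPS11, 34 bp apart on chromosome 15, are such a pair, and rose by 1.17 (SE 0.06) and 1.21 (SE 0.08). Exons of AC013489.1 on the same strand cover 45.3% of those of MRPL46, so its counts are uncertain. Exons of AC013489.3 on the other strand cover 14.2% of those of MRPS11. In GENCODE, MRPL47 and MRPL36 start 36 and 34 bp from NDUFB5 and NDUFS6, subunits of respiratory complex I, which rose by 0.94 and 1.45. Starts in this paragraph are the outer ends of genes in GENCODE, and some differ from the RefSeq starts used for the promoters. The stretch before the RefSeq start of MRPL36 (1799896 to 1800087) lies inside its GENCODE gene, which starts at 1801366. Of the 16 partners outside the members, 10 rose, 4 fell and 2 stayed short of the threshold, where 38.8% of all genes tested rose and 40.5% fell. The median was 1.51 for the members of these pairs and 0.66 for the partners. Median transcript length was 1033.5 nt for these members and 2127.75 nt for the partners. In 3 pairs the genes moved apart by more than 2 on the log2 scale: MRPL41 at 1.88 with PNPLA7 at −1.89, MRPS34 at 1.51 with EME2 at −1.60, and MRPL13 at 1.41 with MTBP at −1.03.

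**Figure D5:**
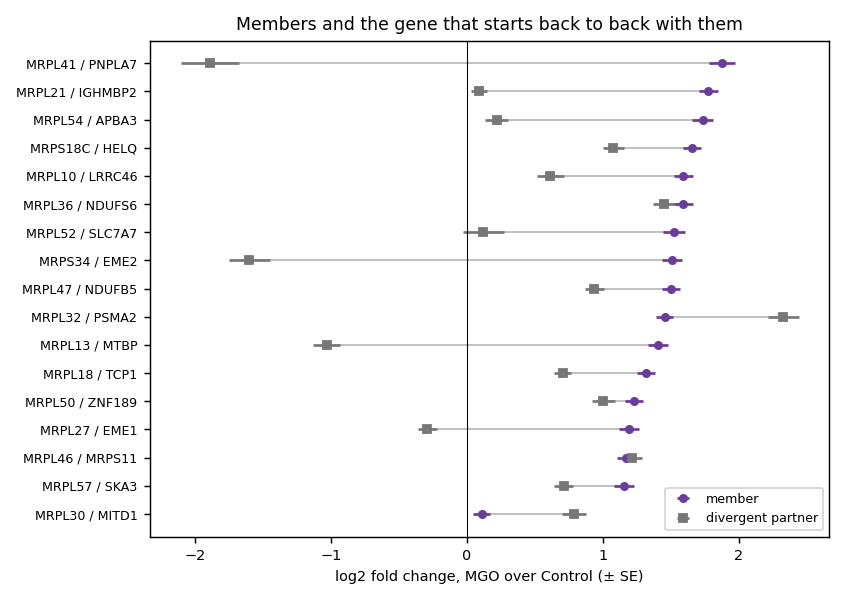
Log2 fold change of MGO over Control (± SE) of members (circles) and of the coding gene that starts on the other strand between 1000 bp before and 100 bp after the member's start (squares), 1 pair a row. The pair MRPL46 and MRPS11 lies close together near 1.2, and PNPLA7, EME2, MTBP and EME1 lie below 0 while their members lie above it.

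Ribosomal proteins of mitochondria that carry other names, and the RNA of the same ribosome, were also higher after MGO. Of 5 genes listed 5 rose: GADD45GIP1 at 1.67, AURKAIP1 at 1.66, CHCHD1 at 1.44, NDUFAB1 at 1.41 and PTCD3, a pentatricopeptide repeat protein, at 0.36 (SE 0.07). NDUFAB1 was in this list, but its product is a subunit of respiratory complex I and is not counted as a ribosomal protein. The ribosomal RNA genes of the mitochondrial genome also rose, MT-RNR2 with 18350, 22010 and 21320 CPM in MGO against 6148, 6286 and 6228 CPM in Control libraries (1.73, SE 0.08), and MT-RNR1 with 1.48 (SE 0.12). Both were counted after selection for polyA RNA.

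Genes of factors that assemble or run the mitochondrial ribosome moved in both directions. Of 30 assembly genes listed, 29 were tested: 22 rose, 4 fell and 3 stayed short of the threshold (median 0.81). The helicase gene DDX28 rose by 2.14 (SE 0.08) and MRM3, a methyltransferase of the large ribosomal RNA, by 1.92 (SE 0.06). LRPPRC, which was in the assembly list but stabilises mitochondrial mRNAs and is not an assembly factor, had a change of −1.21 (SE 0.08). METTL15, a methyltransferase of the small ribosomal RNA, had a change of −0.60 (SE 0.08). GTPBP6 was listed at 0 in all 6 libraries. Of 18 translation factor genes, 11 rose, 4 fell and 3 did not pass (median 0.47). The share that rose was 75.9% for assembly and 61.1% for translation factors, where 38.8% of all genes tested rose and 40.5% fell. MTRF1L, a release factor, rose by 1.82 (SE 0.07) and TUFM, the elongation factor that brings tRNA, by 1.29 (SE 0.07). GUF1 and MTIF2, an elongation and an initiation factor, had changes of −1.04 (SE 0.08) and −0.62 (SE 0.07). With the length and GC trend removed, GUF1 (4449 nt) stood at −0.06 and MTIF2 at −0.46, while LRPPRC stood at −1.27 and METTL15 at −0.29. The median of the translation factors turned to −0.06 under library size alone. Their transcripts were longer than those of the members, with medians of 1848 nt for assembly and 2009.5 nt for translation factors. With that trend removed, 25 assembly genes rose and 3 fell (median 1.003), and 14 translation factor genes rose and 2 fell (median 0.61). Of all genes in that fit, 47.9% rose and 31.7% fell. The difference between these lists and the members was not tested.

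Genes of the cytosolic ribosome, the closest relative in function, had a median of 1.89. Of 80 tested, 79 were raised and 1 was not past the threshold, where 38.8% of all genes tested rose. Their range, −0.12 to 2.72, ran beyond that of the members at the top, and their median transcript length was 736 nt. The difference between these lists was not tested.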

How the data were processed

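PolyA RNA of 6 libraries was sequenced. The authors deposited raw counts for each gene. The submitters' processing notes name featureCounts 2.0.6 for counting, with STAR 2.7.0a, FastQC 0.12.0, SAMtools 1.19.2, Trim Galore 0.6.10 and DESeq2 1.42.0, and the build hg38. Which annotation and strand setting were used, and how multi-mapping reads were handled, is not given in the sources available. Here edgeR 4.0.16 (R 4.3.3) was run on the counts, with filterByExpr, TMM scaling, the quasi-likelihood test and Benjamini-Hochberg adjustment over all genes tested. The SE was obtained as |log2 fold change| over √F. Alternatives, which the closing section covers, used limma 3.58.1 and DESeq2 1.42.0. The steps were tested on simulated data.

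The members and lists were chosen with earlier results of these data known. Named members are the 3 largest and 3 smallest changes and the 2 highest levels per kb in each subunit, all that were not raised or not tested, and 11 chosen by role. Others named within role groups, length classes and divergent pairs were picked after their values were seen. From each pathway list the 2 largest rises and falls past the threshold are named. Lengths and positions are from GENCODE release 29 (all 79 members matched), with transcript length as the median of a gene's basic coding transcripts. Promoters are from RefSeq (GRCh38.p14). Replicates of a group differed beyond sampling noise and were kept apart. Per degree of freedom, chi-square tests gave 51.2, 56.42 and 17.09 for MGO replicates 1 and 2, 1 and 3, and 2 and 3. The same pairs of Control replicates gave 31.39, 23.75 and 3.77. Floors cover counting error only.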

Additional observations from a re-analysis of the deposited data

How the results depend on the processing

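With RLE size factors, a 1 CPM filter, no filter, DESeq2, limma-voom, robust dispersions, a replicate block, or any 1 library left out, the same 70 members were raised and 3 lowered; upper quartile scaling gave 72 and 2, and a test against a 1.2-fold change 68 and 2. The replicate block changed no call among members. Same-numbered libraries did not deviate together (correlations 0.041, 0.018 and 0.013), so the numbers were treated as names. Library size alone gave 7 lowered members in place of 3 and 5673 raised genes in place of 8964, so raised genes were 30.6% of calls in place of 48.9%; it turned MRPS27 to −0.31, MRPS16 to −0.049 and MRPL34 to −0.20, and lowered MRPL19 (−0.49) and MRPL30 (−0.42), and ended the calls of MRPL3 (0.10), MRPS10 (0.06) and MRPL38 (0.04). Upper quartile scaling moved the median of all genes to 0.15 and raised MRPL19 (0.21) and MRPL30 (0.28). The difference of the subunit medians, 0.26, was 0.20 without a filter (which adds the 4 members near 0 counts) and 0.34 with subunits assigned by position. It was 0.24 to 0.29 with 1 library left out and 0.27 with the length and GC trend removed, and the cause was not tested. The length trend was removed over 21694 genes with an annotation; with a replicate block as well, 68 members were raised. No spike-in was used in these fits, so changes are relative to the scaling.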
